A study of Mus musculus with 71 samples.

Results

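The 10 genes described here are immediate-early activation genes: the nuclear receptors Nr4a1, Nr4a2 and Nr4a3, the zinc-finger factors Egr1, Egr2 and Egr3, the AP-1 subunits Fos, Fosb and Junb, and Ier2. They were taken by name and are 10 of the 24475 gene identifiers of the bulk tables. All 10 were found in the 3 bulk count tables and in the 6 single-cell tables, and their positions below are those of GRCm38. Immediate-early genes are transcribed within minutes of a stimulus from factors already present in the cell, and most of their transcripts are short-lived. In T lymphocytes they are induced by antigen receptor signalling, and the NR4A and EGR families are often read as markers of a recent receptor signal. Genes of this class, AP-1 genes among them, also respond to growth factors, stress and the handling of dissociated tissue.

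The study compared C57BL/6 mice with a LacZ cassette placed in the Btnl2 gene, in frame with its start codon (Btnl2-KO), with wild-type (WT) littermates. Btnl2 encodes a butyrophilin-like surface protein of gut epithelium, and the insertion is carried by every cell of the animal. Bulk RNA-seq covered TCRγδ+ intraepithelial lymphocytes (γδ IELs, resident T cells of the gut lining) sorted from 10-week-old females as CD45+ TCRβ- TCRγδ+ cells, with 2 mice pooled in each library. The γδ IEL table held 3 Btnl2-KO and 4 WT duodenal libraries, 4 and 4 jejunal libraries, and 3 and 4 ileal libraries. The epithelial fraction (IECs) of 7-week-old mice gave 2 and 3 duodenal, 3 and 3 jejunal, and 3 and 2 ileal libraries in the same order. Whole colon (7 Btnl2-KO and 6 WT libraries) and whole small intestine (7 and 7) were sequenced from young mice whose age in weeks the labels do not give. Single γδ IELs of mice 8 to 10 weeks old were profiled with 1 droplet library for each segment and genotype, from the same sorted pools as the bulk libraries according to the published methods, so the bulk and single-cell values are not independent.

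Library totals ran from 13444958 to 30029485 counts in γδ IELs, from 15397757 to 38258472 in IECs and from 13619309 to 21708721 in tissue. Btnl2 was at most 0.123 CPM (the count scaled to library size) in the 10 Btnl2-KO γδ IEL libraries and at least 2.47 CPM in the 12 WT libraries. The γδ IEL markers, 11 genes that include Cd3e, Cd8a and Gzma, summed to between 35690 and 93384.7 CPM in the sorted libraries and to at most 416 CPM in IECs. The sorted libraries also held epithelial transcripts, with 12 pan-epithelial genes summing to between 611 and 9037 CPM. In IECs 3 libraries went against their labels. The library labelled jejunum Btnl2-KO replicate 2 held 19.5 CPM of Btnl2 and 484 CPM of Fabp6, a bile acid carrier of the ileum. The library labelled duodenum Btnl2-KO replicate 1 held 220 CPM of Fabp6. It also held 5.45 CPM of Btnl2, against 0.342 CPM in the other duodenal Btnl2-KO library. Fabp6 was 0.231 CPM in the library labelled ileum Btnl2-KO replicate 1. By the published methods the bulk γδ IEL libraries were separate sorts from pools of littermates, and each small intestine was cut into its segments, so duodenal, jejunal and ileal libraries may come from the same pools. No label links the libraries of a pool, and the tests between segments and of the interaction treat them as independent.

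Stretches of promoter DNA are shown because groups of these genes were detected in the same cells (below). Serum response factor, which binds the CArG box, is a textbook inducer of this class, and EGR proteins are themselves products of it. RefSeq windows (GRCm38.p6, 250 bases before to 50 after a transcription start) were at hand for 7 of the 10 genes, with 11 start sites among them. Windows for Egr1, Egr3 and Ier2 were not used here. Of 32851 windows of all genes, 1.63% held a CArG box and 5.55% held the EGR motif GCGNGGGCG on either strand. Among the 11 windows, the CArG box was matched in 4, all of them start sites of Egr2. The EGR motif was matched in 3, those of Nr4a1, Nr4a2 and Fosb. None held the CRE TGACGTCA (1.79% of all windows), the AP-1 site TGANTCA (7.81%) or the NR4A site AAAGGTCA (1.51%), which says only that these letters are absent from these windows. CRE is the site of CREB factors. In the following 30-base stretches, written 5′ to 3′ on the gene's strand, capitals mark the match. The first lies 72 bases before start site 3 of Egr2 (chr10:67537787-67537816, plus strand) and is shared by 3 start sites. The second lies 72 bases before start site 2 (chr10:67537484-67537513, plus strand).
Egr2 CArG, start site 3: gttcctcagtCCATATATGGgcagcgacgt
Egr2 CArG, start site 2: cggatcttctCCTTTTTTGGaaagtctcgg
Nr4a1 EGR motif: tgcgtcagtggCGCCCCCGCccctctccat
Nr4a2 EGR motif: gcgcggggtgcGCGCGGGCGgcgacaatga
Fosb EGR motif: gtgacgcaagcGCGGGGGCGggtcccggag

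The Nr4a1 match lies at chr15:101266775-101266804 (plus strand), 60 bases before the start. That of Nr4a2 lies at chr2:57124059-57124088 (minus strand), 74 bases before the start, and that of Fosb at chr7:19310077-19310106 (minus strand), 50 bases before it. Fos and Junb, the pair most often detected in the same cells, held none of the 5 motifs. Their 250 bases before the start are given below (Fos chr12:85473640-85473889, plus strand, and Junb chr8:84978749-84978998, minus strand). Capitals mark TATAAA, a motif added after the values had been seen, which begins 33 bases before the Fos start. Its match in the Junb window begins 1 base after the start and so lies outside the stretch shown. On the gene's own strand TATAAA was in 8.32% of all windows.
Fos: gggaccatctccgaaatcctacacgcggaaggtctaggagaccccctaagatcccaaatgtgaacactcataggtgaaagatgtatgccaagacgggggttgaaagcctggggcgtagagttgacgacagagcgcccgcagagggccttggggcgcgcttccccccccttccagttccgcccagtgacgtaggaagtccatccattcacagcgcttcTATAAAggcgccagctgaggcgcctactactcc
Junb: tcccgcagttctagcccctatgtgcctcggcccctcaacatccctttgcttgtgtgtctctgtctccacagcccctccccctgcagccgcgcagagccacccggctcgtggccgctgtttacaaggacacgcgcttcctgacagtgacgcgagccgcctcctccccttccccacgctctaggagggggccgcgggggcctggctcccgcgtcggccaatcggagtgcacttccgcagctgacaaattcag

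Each of the 10 genes had its highest median level in sorted γδ IELs among the 3 bulk tables. Summed over the 10 genes, the level was between 1357 and 2893 CPM in γδ IELs, between 85.5 and 182 CPM in IECs and between 103 and 417 CPM in tissue, so the γδ IEL range lay above both others. Fos (chr12:85473890-85477274), the inducible partner of JUN proteins in AP-1, had a median of 636 CPM in γδ IELs, 42.8 CPM in IECs and 82.2 CPM in tissue. Junb, a JUN protein that pairs with it, had medians of 732, 18.8 and 63.1 CPM. Nr4a1 (also called Nur77), the receptor-signal reporter of T cells, had medians of 14.9 CPM in γδ IELs, 0.575 CPM in IECs and 11.6 CPM in tissue. Egr2, which limits T cell activation, had medians of 13.9, 0.301 and 0.993 CPM. For 9 of the 10 genes every γδ IEL library lay above every IEC library. The exception was Fosb, at 2.55 to 37.2 CPM in γδ IELs and 1.47 to 14.6 CPM in IECs. Against tissue the ranges overlapped for 5 genes (Nr4a1, Nr4a3, Egr1, Egr3 and Fosb). How many of all genes lay apart between these fractions was not counted, so the counts are not read as particular to the 10 genes.

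**Figure D1:**
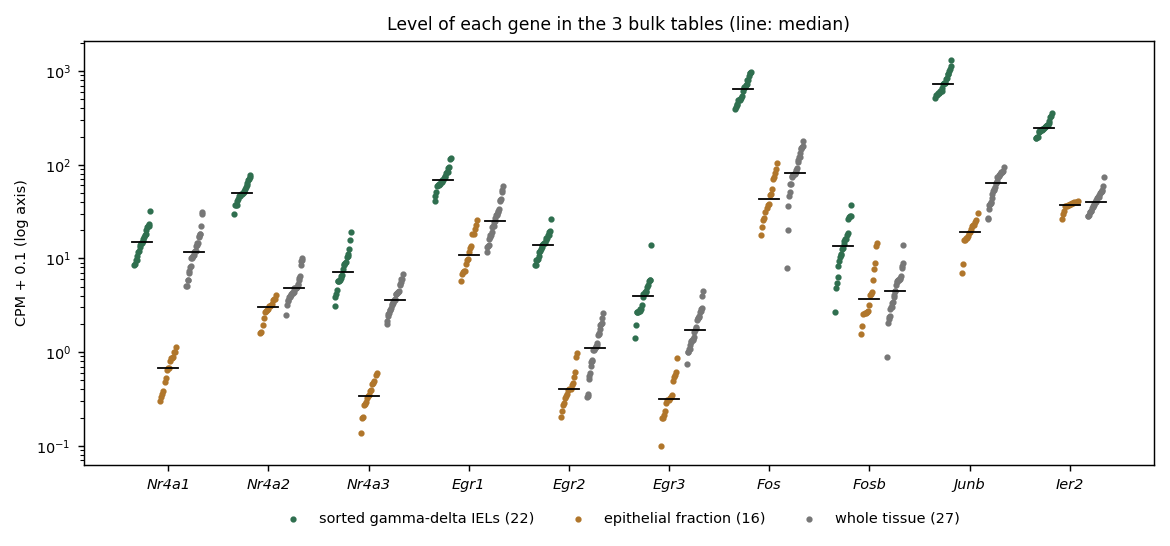
Level of each gene in the 3 bulk tables, as CPM plus 0.1 on a log axis. Each point is a library, sorted by value within its table, and the line is the median. Every gene's γδ IEL median (green) lies above its IEC (brown) and tissue (grey) medians, and the green and brown points overlap for Fosb alone.

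Within tissue the 10 genes summed to a lowest, median and highest of 214, 270.5 and 417 CPM in Btnl2-KO colon and of 180.4, 239 and 345 CPM in WT colon. In small intestine the sums were 192, 275 and 322 CPM in Btnl2-KO and 103, 176 and 376 CPM in WT. The genotypes overlapped in both organs, and tissue genotypes were not tested here.

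The tables were made separately from mice of different ages and with different handling, so these levels are set side by side without a test. In bulk samples fewer cells of a type and less RNA per cell cannot be told apart. The epithelial fraction shared the EDTA shaking and density gradient with the IELs but was neither stained nor sorted, and it serves as a check on handling. The 12 heat-shock genes, which respond to stress of dissociation, summed to between 4255 and 7447 CPM in γδ IELs and to between 6308 and 10713.3 CPM in IECs, overlapping ranges with the higher median in IECs (7572 against 6213 CPM). The part of handling in the level of the 10 genes was not tested.

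The question put to the Btnl2-KO libraries was whether γδ IELs of mice lacking Btnl2 differ in these genes from those of WT mice in the same segment. None of the 10 genes passed the call (adjusted p under 0.05 and a fold change above 1.5, edgeR quasi-likelihood test with Benjamini-Hochberg adjustment over all genes tested) in any segment. Over all genes calls were as rare, at 0.00789% of 12680 duodenal, 0.00794% of 12594 jejunal and 0% of 12604 ileal genes. Unadjusted p by edgeR was under 0.05 for 2 duodenal, 1 jejunal and 0 ileal values of the 10 genes, beside 263, 804 and 1108 of all genes tested. Neither DESeq2 nor limma-voom called any of the 10, although in the ileum they called 221 and 1207 genes of the whole table. The median log2 fold change of the 10 genes was 0.09 for duodenum, 0.09 for jejunum and 0.31 for ileum, beside medians of 0.00, -0.02 and 0.06 over all genes tested.

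In the duodenum Egr1 (chr18:34861207-34864956), an early zinc-finger factor of mitogen and receptor signalling, was at 68.1, 65.5 and 76.6 CPM in Btnl2-KO libraries and at 51.3, 46.3, 60.3 and 60.7 CPM in WT libraries. The groups did not overlap, and the log2 fold change was 0.36 ± 0.14 (SE), with an adjusted p of 0.997 by edgeR. Nr4a2 (chr2:57106830-57124003), an orphan nuclear receptor that acts without a known ligand, was at 49.5, 57.8 and 51.5 CPM against 36.8, 37.5, 48.3 and 46.3 CPM. Its groups did not overlap either, and its log2 fold change was 0.33 ± 0.15 (SE). In the jejunum both genes had the opposite sign, -0.34 ± 0.18 for Egr1 and -0.19 ± 0.21 for Nr4a2. Jejunal Ier2 (chr8:84661331-84662852), a small nuclear protein of the serum response, was at 266, 262, 291 and 199 CPM in Btnl2-KO and at 228, 191, 191 and 197 CPM in WT. Only the lowest Btnl2-KO value lay within the WT range, and the log2 fold change was 0.38 ± 0.15 (SE).

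**Figure D2:**
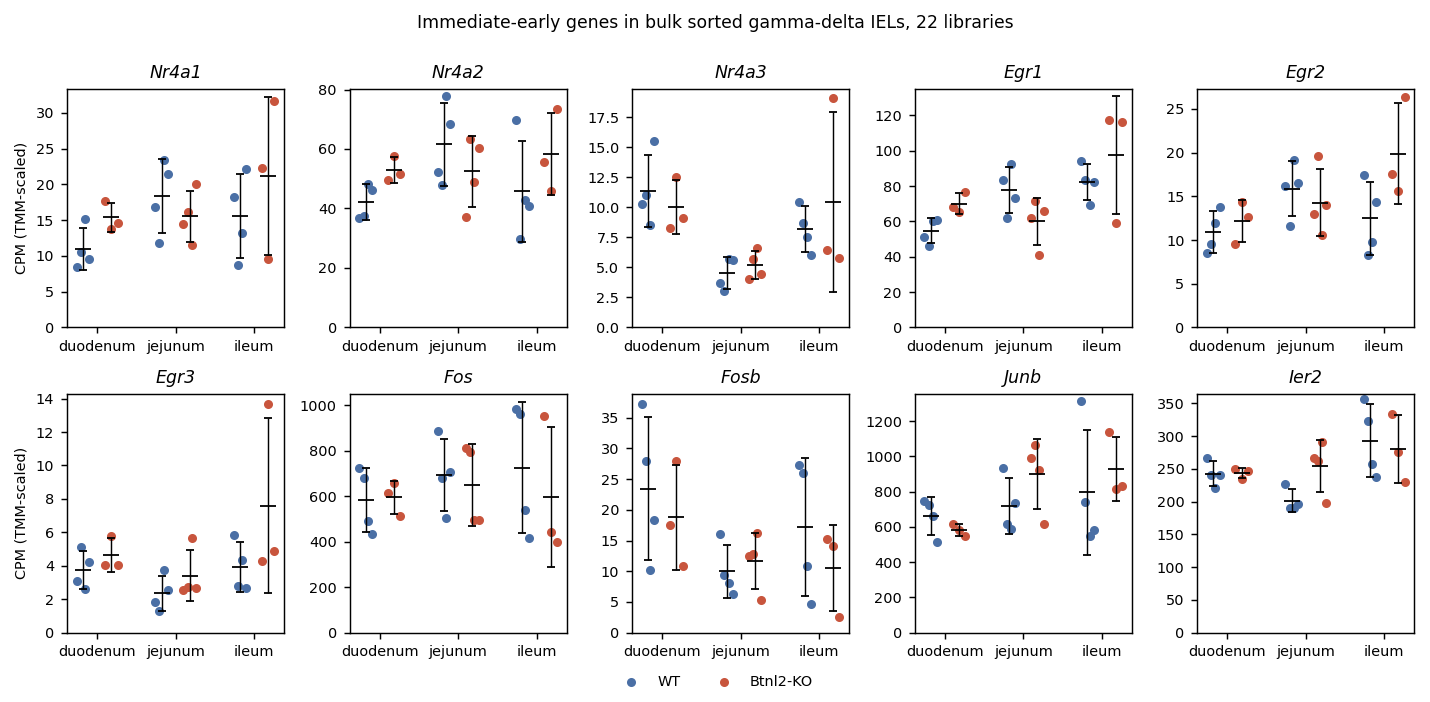
CPM of each gene in the 22 bulk γδ IEL libraries by segment, with WT in blue and Btnl2-KO in red. Points are libraries, and the black mark and bar are the mean and SD. Blue and red points overlap in nearly every panel and segment, while Nr4a3 is lowest in the jejunum in WT.

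The widest differences between genotypes were in the ileum, where the spread between libraries was also wide. Egr3 (chr14:70077317-70082613), which acts with Egr2 to restrain T cells, was at 4.26, 13.7 and 4.89 CPM in Btnl2-KO and at 5.84, 2.79, 4.33 and 2.65 CPM in WT libraries. A single Btnl2-KO library was high, and the log2 fold change was 0.99 ± 0.50 (SE). The same library held 19.1 CPM of Nr4a3, against 6.42 and 5.83 CPM in the other Btnl2-KO libraries, yet it had the lowest Btnl2-KO values of Nr4a1 (9.55 CPM) and Egr1 (58.9 CPM). Egr2 (chr10:67534469-67542188) was at 17.5, 15.6 and 26.4 CPM in Btnl2-KO and at 17.5, 8.31, 9.80 and 14.3 CPM in WT, which gave a log2 fold change of 0.69 ± 0.31 (SE). Fosb (chr7:19302696-19310118), an AP-1 subunit, ran the other way at 15.2, 14.1 and 2.55 CPM against 27.3, 25.9, 10.9 and 4.69 CPM, a log2 fold change of -0.67 ± 0.67 (SE). In WT ileal replicate 1, 9 of the 10 genes were at their group's highest value. How many of all genes were highest in that library was not counted, so this is not read as particular to the 10 genes. The 12 pan-epithelial genes had a median sum of 2884 CPM in ileal Btnl2-KO and 7345 CPM in ileal WT libraries. Their part in these values was not tested beyond the fit with their mean log2 CPM as a covariate, in which none of the 10 genes was called either.

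Libraries of a group differed unequally from gene to gene. The SD of log2(CPM + 1) within groups was 0.84 for Fosb, 0.46 for Fos and 0.47 for both Nr4a1 and Egr3. For Ier2 it was 0.20, and the median over 13360 genes was 0.30. Fosb was thus more variable within groups than 94.98% of genes (85.5% with a pseudocount of 0.1) and Ier2 more variable than 14.4%, a description that also carries the precision of low counts.

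Segments of WT γδ IELs were compared next, since many genes differ along the gut. In the jejunum against the duodenum Nr4a3 was lower and passed the call, as 1 of 10 genes, whereas 22.5% of 12899 genes passed in either direction (10.4% higher and 12.1% lower). Nr4a3 (chr4:48045078-48086447), another NR4A receptor, was at 3.73, 3.03, 5.69 and 5.62 CPM in the jejunum and at 10.3, 11.04, 8.51 and 15.6 CPM in the duodenum. Every jejunal value lay below every duodenal value, and the log2 fold change was -1.34 ± 0.27 (SE, adjusted p = 0.0037 by edgeR). Leaving out each library in turn kept this call, with log2 fold changes between -1.48 and -1.15, as did the fit with the mean log2 CPM of the epithelial genes as a covariate (-1.49). The other NR4A receptors had the opposite sign in the same libraries, 0.74 ± 0.29 (SE) for Nr4a1 (chr15:101253902-101274795) and 0.53 ± 0.23 for Nr4a2, and did not pass. Egr1 was at 83.2, 61.8, 92.4 and 73.2 CPM in the jejunum and did not overlap with the duodenum. Its adjusted p was 0.0216 by edgeR, but its log2 fold change of 0.49 ± 0.15 (SE) was under the minimum fold. Fosb (-1.25 ± 0.50) and Egr3 (-0.68 ± 0.38) did not pass.

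The jejunum also stood below the ileum for Nr4a3, which was at 10.5, 8.74, 7.53 and 6.04 CPM in the WT ileum, with no overlap. The log2 fold change of ileum against jejunum was 0.88 ± 0.27 (SE, adjusted p = 0.0253 by edgeR), and again 1 of 10 genes passed where 21.9% of all genes did (11.4% higher and 10.5% lower). This call was lost without ileal replicate 1 (adjusted p = 0.0571) or 2 (0.0632), without jejunal replicate 1 (0.0714) or 2 (0.059), and with all libraries in 1 fit (0.0809), all by edgeR, with the log2 fold change between 0.72 and 1.02 without any single library. Ier2 was at 356, 323, 257 and 237 CPM in the ileum and did not overlap with the jejunum. Its adjusted p was 0.00936 by edgeR, and its log2 fold change of 0.56 ± 0.14 (SE) was just under the minimum fold. Between ileum and duodenum 0 of the 10 genes passed by edgeR, where 2.11% of all genes did (1.08% higher and 1.03% lower). Of 12899 genes 1545 had an unadjusted p under 0.05 by edgeR, and so had 1 of the 10. That gene was Egr1, with a log2 fold change of 0.60 ± 0.15 (SE, adjusted p = 0.0572), and it was the 1 member that DESeq2 called, among 498 genes of the whole table (limma-voom called 0 of the 10 and 356 of the whole table).

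**Figure D3:**
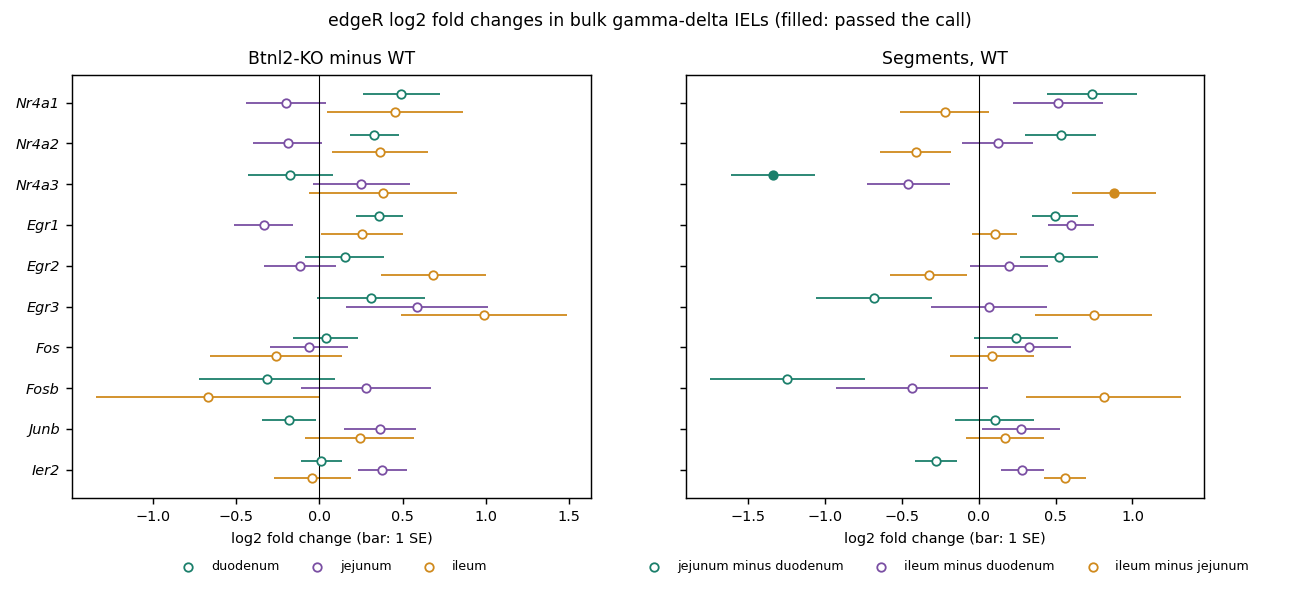
edgeR log2 fold changes of the 10 genes in bulk γδ IELs, with bars of 1 SE. The left panel gives Btnl2-KO minus WT in each segment, and the right panel the 3 segment comparisons in WT. Filled points passed the call, which only Nr4a3 did, in the jejunum against the duodenum (-1.34) and the ileum against the jejunum (0.88).

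In Btnl2-KO mice 0 of the 10 genes passed in any segment comparison by edgeR, which called 0%, 0.00775% and 0% of 12901 genes for jejunum against duodenum, ileum against duodenum and ileum against jejunum. Unadjusted p by edgeR was under 0.05 for 2, 2 and 3 of the 10, beside 970, 873 and 371 of the 12901 genes. DESeq2 also called 0 of the 10, and 55, 137 and 2 genes of the whole table. limma-voom called Junb in the jejunum against the duodenum and no other member, and 234, 56 and 1 genes of the whole table. Nr4a3 was at 4.06, 5.70, 6.59 and 4.48 CPM in the Btnl2-KO jejunum and at 8.31, 12.6 and 9.14 CPM in the duodenum. These groups did not overlap, and the log2 fold change was -0.94 ± 0.42 (SE, adjusted p = 0.664 by edgeR). Junb (chr8:84976909-84978748) was at 994, 1064, 925 and 616 CPM in the jejunum and at 617, 581 and 549 CPM in the duodenum. One jejunal value lay within the duodenal range, and the log2 fold change was 0.62 ± 0.23 (SE).

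Whether the segment differences changed with genotype was tested as an interaction. 0 of the 10 genes and 0% of 13360 genes passed by edgeR, and DESeq2 called 0 of the 10. At an unadjusted p under 0.05 stood Egr1 for jejunum against duodenum (-0.72 ± 0.29, log2 ± SE) and Egr2 for ileum against jejunum (0.81 ± 0.38), with adjusted p-values of 0.792 and 0.339 by edgeR. Of all 13360 genes, 647 and 1928 stood there in these comparisons. limma-voom with library weights called 3 of the 10 genes for ileum against jejunum, among 2705 genes of the whole table: Egr1 (0.90), Egr2 (1.06) and Nr4a2 (1.04 on the log2 scale, Btnl2-KO minus WT).

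In IECs 0 of the 10 genes passed between genotypes in any segment by edgeR, which called 0% (duodenum), 0% (jejunum) and 0.00774% (ileum) of all genes. DESeq2 and limma-voom also called 0 of the 10, and each called 1, 1 and 2 genes of the whole table. Of the 10 genes, 7, 8 and 10 had enough counts to be tested. None had an unadjusted p under 0.05 by edgeR, beside 154, 1054 and 268 of all genes tested. Fos was at 105, 37.9 and 73.5 CPM in ileal Btnl2-KO and at 30.9 and 48.6 CPM in ileal WT epithelium, a log2 fold change of 0.88 ± 0.45 (SE). The highest of these values came from the library with 0.231 CPM of Fabp6, and the count of the 10 genes called stayed at 0 in every segment without the 3 libraries that went against their labels. Among WT segments 9 of the 10 genes were tested and 0 passed by edgeR, against 0.767% of genes for jejunum against duodenum, 6.59% for ileum against duodenum and 0.644% for ileum against jejunum. The nearest was Egr1, at 18.2, 8.57 and 25.5 CPM in the jejunum and at 5.61, 7.15 and 7.19 CPM in the duodenum. Its groups did not overlap, and its log2 fold change was 1.40 ± 0.35 (SE, adjusted p = 0.139 by edgeR). DESeq2 called Egr1 and Fos there, among 427 genes of the whole table, and limma-voom called Nr4a1 for ileum against duodenum, among 1638. Unadjusted p by edgeR was under 0.05 for 3, 1 and 1 of the 10, beside 1895, 2514 and 836 of 13046 genes. In the same order the median log2 fold change of the 9 tested genes was 0.87, 0.66 and -0.52, beside 0.02, 0.01 and -0.01 over all genes. All 9 were higher in the jejunum than in the duodenum. In the ileum 7 were higher than in the duodenum and 3 were higher than in the jejunum.

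Related genes were followed through 3 lists. Of the 18 tested of 20 other immediate-early genes, 1 rose and 2 fell in the WT jejunum against the duodenum, where 22.5% of all genes passed. Zfp36, whose protein degrades cytokine mRNAs, rose by a log2 fold change of 0.60 ± 0.17 (SE), while its relative Zfp36l1 (-1.16 ± 0.22) and the AP-1 gene Fosl2 (-0.94 ± 0.31) fell. Of the 22 T cell activation genes, Nfatc1 (0.65 ± 0.17) and Tnfaip3 (0.78 ± 0.21) rose and Xcl1 (-1.25 ± 0.18), a chemokine, fell. Of the 11 tested of 12 heat-shock genes, 3 fell (Hspe1 at -1.52, Hsp90aa1 at -1.003 and Hsp90ab1 at -0.75 on the log2 scale) and the list's median was -0.48, beside 0.02 over all genes. These heat-shock genes moved in the same comparison as Nr4a3, and their part in it was not tested. Between the WT ileum and jejunum 5 other immediate-early genes rose and 0 fell, 2 activation genes rose and 1 fell, and 3 heat-shock genes rose and 1 fell, where 21.9% of all genes passed. Klf4 (2.29 ± 0.42, log2 ± SE), Atf3 (2.70 ± 0.70) and Zfp36l1 (0.83 ± 0.22) were among the first, and Nfkbia (0.69 ± 0.13), an inhibitor of NF-κB, among the second. In the same comparison 6 of the 12 pan-epithelial genes rose and 1 fell, and their part in these values was not tested. Between genotypes 0 genes of the 3 lists passed by edgeR in any segment of γδ IELs. At an unadjusted p under 0.05 by edgeR stood 0 duodenal, 9 jejunal and 4 ileal values of the 3 lists together, beside 263, 804 and 1108 of all genes tested.

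Single γδ IELs showed in how many cells these genes were detected. Where a cell needed 500 genes and a mitochondrial share of at most 10% of its UMIs (unique molecular identifiers) to be kept, the 6 libraries held 3589 to 4647 cells, with medians of 4877 to 5468 UMIs per cell. Any pair of libraries shared 18 to 31 barcodes, at most 0.835% of the smaller library. LacZ gave 8 to 21 UMIs in each Btnl2-KO library and 0 in WT, and Btnl2 gave 0 in each Btnl2-KO library and 1 to 3 in WT. With 1 library for each segment and genotype no difference between them can be tested. Intervals below cover counting error only, and no cell type in these libraries is known to lack these genes, so background from free RNA was not measured for them.

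The 10 genes together made up 19.8 to 23.0 of every 10000 UMIs. Junb was found in 86.4% to 90.3% of cells, Fos in 59.8% to 71.6% and Ier2 in 63.6% to 68.6%. After each cell was thinned to 1000 UMIs, which left out no cell, the shares were 52.8% to 60.0%, 24.1% to 36.5% and 20.8% to 24.5%. Nr4a2 was detected in 11.6% to 14.2% of thinned cells, Egr1 in 3.38% to 4.71% and Fosb in 2.37% to 7.89%. The others were rare, with Nr4a1 in 0.808% to 1.51%, Nr4a3 in 0.593% to 1.05%, Egr2 in 0.566% to 0.925% and Egr3 in 0.153% to 0.430% of thinned cells. The frequent members were thus the AP-1 genes Junb and Fos with Ier2, and the rare ones belonged to the NR4A and EGR families. Counted per thinned cell, none of the 10 genes was detected in 21.2% to 26.5% of cells, and 3 or more were detected in 12.2% to 16.6%. No cell held more than 8 of them.

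Fosb varied most between libraries. In the duodenum it was at 0.751 (95% exact Poisson interval 0.714 to 0.790) UMIs per 10000 in Btnl2-KO and 0.772 in WT, in the jejunum at 0.690 and 0.625, and in the ileum at 0.233 and 0.350. Both ileal libraries lay below the other 4, and the same held for Fos, at 3.29 in ileal Btnl2-KO, 4.21 in ileal WT and 4.69 to 5.43 elsewhere. In bulk from the same sorts the WT means of Fosb did not have the ileum lowest, at 23.5 CPM (duodenum), 9.97 CPM (jejunum) and 17.2 CPM (ileum). The Btnl2-KO means did, at 18.8 CPM (duodenum), 11.7 CPM (jejunum) and 10.6 CPM (ileum), with overlapping ranges. For Fos the bulk means had the ileum lowest in neither genotype. They were 582, 694 and 726 CPM in WT and 595, 649 and 599 CPM in Btnl2-KO, in the same order of segments. In WT cells Nr4a3 stood at 0.0948 UMIs per 10000 for duodenum, 0.0772 for jejunum and 0.0691 for ileum, 1 library each. The WT jejunum lay below the duodenum, and the ileum was not above the jejunum. After thinning Nr4a3 was detected in 0.789% of duodenal, 0.724% of jejunal and 0.593% of ileal WT cells. With so few cells and 1 library each, no order of segments is read from these values. In Btnl2-KO cells Nr4a3 stood at 0.0900 for duodenum, 0.0974 for jejunum and 0.0909 for ileum. By these values the jejunum was not below the duodenum, whereas in Btnl2-KO bulk it was (means of 5.21 and 10.0 CPM). The thinned shares in Btnl2-KO were 1.05% for duodenum, 0.714% for jejunum and 0.710% for ileum. They did not keep the order of the summed UMIs, so no order is read here either.

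**Figure D4:**
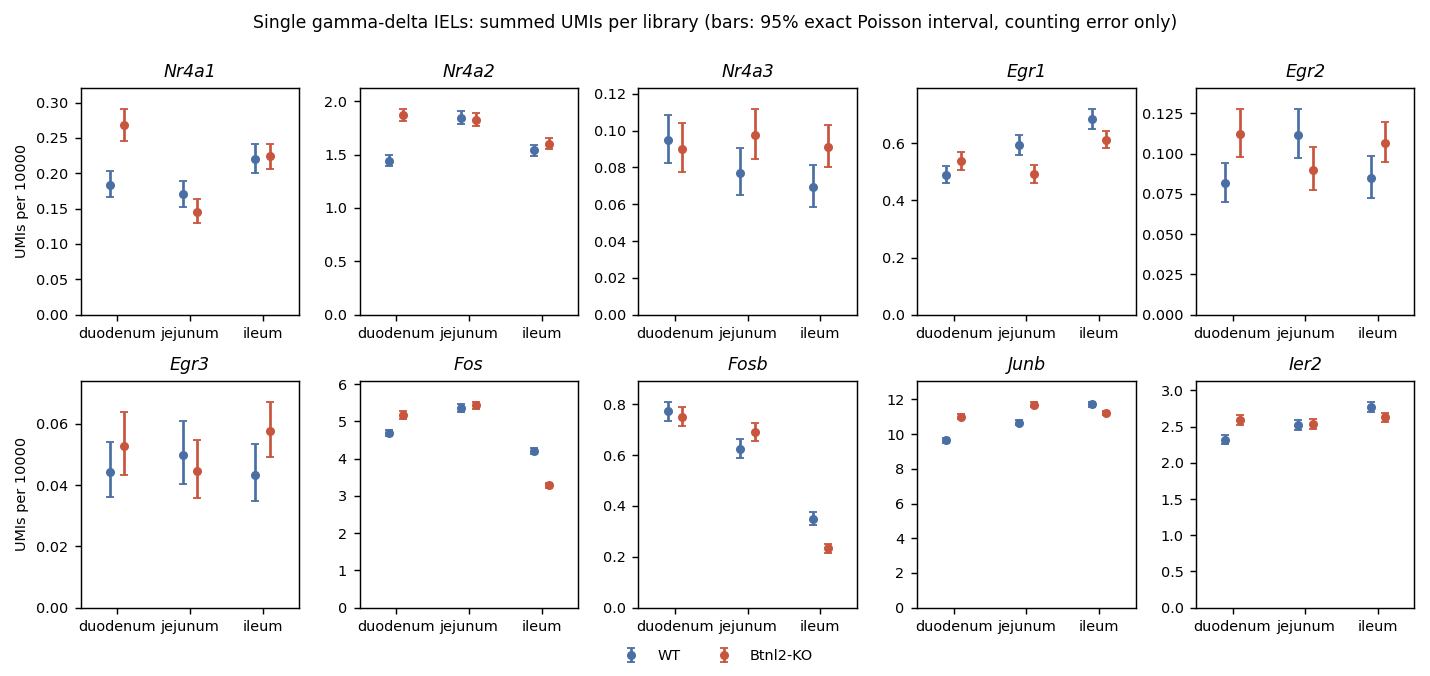
Summed UMIs per 10000 of each gene in the 6 single-cell libraries, WT in blue and Btnl2-KO in red, with 95% exact Poisson intervals that cover counting error only. Fosb and Fos are lowest in both ileal libraries, and Junb lies between 9.64 and 11.7 in all 6.

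Between genotypes the ratio of the 10 genes' summed level, Btnl2-KO to WT, was 1.14 (1.12 to 1.15) for duodenum, 1.05 (1.03 to 1.06) for jejunum and 0.924 (0.913 to 0.936) for ileum. Nr4a1 had the highest ratio in the duodenum, 1.46 (1.28 to 1.66), but after thinning it was detected in 1.13% of Btnl2-KO and 1.27% of WT cells, so no order is read from it. Nr4a2 had a duodenal ratio of 1.30 (1.24 to 1.36), and its thinned shares ran the same way, 13.7% against 11.6%. In the bulk duodenum Nr4a2 was likewise higher without passing the call.

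NR4A and EGR genes tended to be detected in the same cells as one another, and AP-1 genes likewise. Correlations of pairs across these 2 groups were close to 0. Correlations below are between cells of a library thinned to 1000 UMIs, on log2(count + 1), averaged over the 6 libraries of 3589 to 4647 cells. The cells of a library share its preparation, so no p is given. Over all 45 pairs the mean was 0.0889, and it lay between 0.0805 and 0.0985 in single libraries. The NR4A and EGR genes were joined into one group after these values had been seen, and they were not apart from each other. Among the 15 pairs of NR4A and EGR genes the mean was 0.175 (0.148 to 0.206 by library), and among the 3 pairs of AP-1 genes it was 0.176 (0.164 to 0.186). Across the 18 pairs of an NR4A or EGR gene with an AP-1 gene it was 0.0158 (0.0134 to 0.0185). A rare and a frequent gene can reach only a low correlation. Odds ratios of detection in the same cell (median of 6 libraries) are therefore given too. For NR4A and EGR genes they were 1.40 to 2.24 with Junb, 1.11 to 1.40 with Fos and 0.727 to 1.20 with Fosb. Within AP-1 they were 2.58 (Fos and Junb), 2.85 (Fos and Fosb) and 2.40 (Fosb and Junb). By correlation Ier2 stood between, with a mean of 0.0689 with the NR4A and EGR genes and 0.0509 with the AP-1 genes. Its median odds ratios were 1.33 (Nr4a2) to 4.71 (Egr3) with the NR4A and EGR genes. With the AP-1 genes they were 1.22 (Fos) to 1.38 (Junb), so by this measure Ier2 stood nearer the NR4A and EGR genes.

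**Figure D5:**
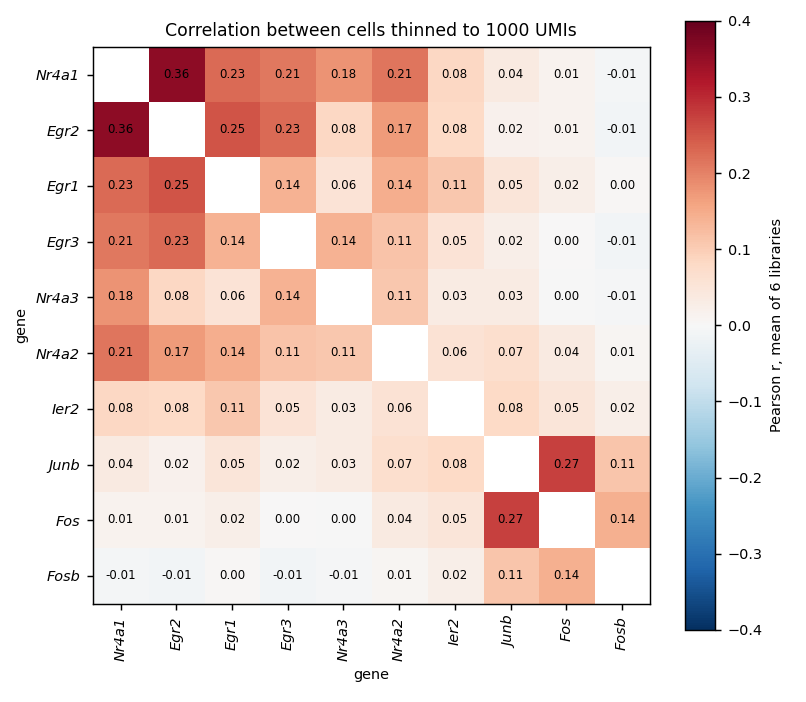
Pearson correlation of each pair of genes between cells thinned to 1000 UMIs, averaged over 6 libraries (color scale from -0.4 to 0.4). A block of NR4A and EGR genes (upper left, up to 0.36) and a block of Junb, Fos and Fosb (lower right, up to 0.27) stand apart, with values near 0 between them.

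The closest pair was Nr4a1 and Egr2, with a correlation of 0.357 (0.274 to 0.479 by library). Only 63 thinned cells of all libraries held both, and the odds of finding the genes together were raised by a median odds ratio of 69.4 (26.6 to 98.7). Fos and Junb followed with 0.273 (0.258 to 0.291), 5393 cells with both and a median odds ratio of 2.58. Egr1 with Egr2 (0.251), Egr2 with Egr3 (0.227) and Nr4a1 with Egr1 (0.226) came next. Egr2 and Fosb stood last at -0.0116, with 4 cells holding both. The ratios of rare genes rest on few cells, and their order changed with the setting: without the 5% of cells with the most UMIs the pair of Nr4a1 and Egr2 was at 0.228, with rank 5.

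Cells with several NR4A and EGR transcripts were few but were present in all 6 libraries. Thinned cells with 3 or more of these 6 genes numbered 160 in all, 16 to 37 by library (0.446% to 0.796%). In them Ier2 was detected in 50% to 68.8%, against 19.9% to 23.2% of cells with none of the 6 genes. Junb was detected in 70.3% to 92.6% against 51.4% to 58.6%, while Fos was in 27.03% to 44.4% against 23.1% to 35.6%, overlapping ranges. Before thinning these cells had median depths of 5211 to 6218 UMIs, and cells with none had 4845 to 5466. The chemokine gene Ccl4, made by activated cytotoxic lymphocytes, was detected in 63.0% to 87.5% of cells with 3 or more and in 18.7% to 25.2% of cells with none. Ccl4 was also the gene ranked first against the number of these genes (below), so its higher share is not separate evidence. Gzmb was in 63.0% to 93.8% against 67.6% to 74.8%, and Jun in 5.41% to 25.9% against 12.4% to 23.3%, overlapping ranges.

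Each member frequent enough to rank stood near the top of all genes when compared with the other members. Against 5305 other genes, which with the member makes 5306 ranked, by correlation with the number of other members detected, Junb was at rank 1 (0.241), Fos at 2 (0.193), Egr1 and Nr4a2 each at 3 (0.149 and 0.144), Ier2 at 6 (0.114) and Fosb at 7 (0.108). Nr4a1, Nr4a3, Egr2 and Egr3 were detected in too few cells to be ranked. Outside the 10 genes, the 15 most like them were Jun (0.197), Ccl4 (0.171), Dusp1 (0.158), Rgs1, Zfp36, Ccl3, Tnfaip3, Xcl1, Zfp36l1, H3f3b, Nfkbid, Bcl2a1b, Btg2, Ppp1r15a and Nfkbia (0.0778). Among these are a JUN protein, a phosphatase of MAP kinases (Dusp1), chemokines (Ccl3, Ccl4, Xcl1) and inhibitors of NF-κB signalling (Tnfaip3, Nfkbia).

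The same genes were then set against each group of members. Against the number of NR4A and EGR genes in a cell, Ccl4 (0.277), Ccl3 (0.184), Nfkbid (0.169), Bcl2a1b (0.165) and Xcl1 (0.135) held ranks 1 to 5 of 5305 genes, while their correlations with the number of AP-1 genes were 0.0210, 0.00781, -0.00856, -0.00848 and 0.0396. Against the AP-1 number, Jun (0.249), Dusp1 (0.173), Rgs1 (0.130) and Zfp36 (0.122) led, with 0.00754, 0.0331, 0.0345 and 0.0482 for the NR4A and EGR number. The 9 genes were named for their rank against one of the numbers, so the lower value against the other is partly set by that choice. Picked after their values were seen, the cytotoxic granule genes Gzma (-0.0999) and Gzmb (-0.0924) were the lowest of all genes for the AP-1 number.

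The heat-shock list was read as the handling check in single cells. Of its 9 genes ranked, Dnajb1 had the highest correlation with the number of the 10 genes detected (0.0739, rank 17), a gene picked for that rank, and it followed the AP-1 number (0.0771) more than the NR4A and EGR number (0.0172). The median of the list was 0.0165, beside 0.0682 for the 12 ranked of the other immediate-early genes, 0.0453 for the 15 ranked T cell activation genes and 0.000794 for all genes ranked. The 12 heat-shock genes took 37.8 to 41.8 UMIs per 10000 by library. Of the epithelial markers only Cdh1 and Epcam were frequent enough to rank, both below 0 (-0.00250 in median).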

How the data were processed

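Bulk tables of sorted γδ IELs, IECs and whole tissue held expected counts per gene, which the authors deposited after estimating them with RSEM from reads on the sense strand of exons (GRCm38). These were rounded to whole numbers. The single-cell tables held UMI counts per gene and cell, deposited as the authors made them with Cell Ranger. A column of the bulk tables that matched no sample (1 column) was not used.

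For the bulk tables the quasi-likelihood test of edgeR 4.0.16 was used under R 4.3.3 with TMM scaling. Genes entered where a number of libraries equal to the smallest group reached 10 counts, with Benjamini-Hochberg adjustment over all genes tested. A gene was called at an adjusted p under 0.05 and a fold change above 1.5. CPM values use TMM-scaled library sizes within a table, and an expected count cannot show shared reads between similar genes. The kit named in the labels differs from that of the published methods. DESeq2 1.42.0 and limma 3.58.1 (voom with library weights) served as alternatives, as did other scaling, other count filters, no fold minimum, a single fit of all libraries, a covariate for epithelial transcripts and each library left out in turn. The script was tested on simulated data. No batch labels were at hand. The tissue table was used for levels, without a test of genotype.

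A cell was kept if it had 500 or more genes and mitochondrial UMIs made up no more than 10% of its total, without clustering and without a doublet caller. Each cell was thinned to 1000 UMIs (2000 as an alternative) with a fixed seed. Genes detected in at least 2% of thinned cells were ranked. Other cell alternatives left out the 5% of cells with the most UMIs or cells with markers of other cell types, and the last of these was added for co-expression after the data had been seen. Intervals are exact at 95% and cover counting error only.

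The 10 members were named in every comparison, Btnl2 and Fabp6 as checks of the labels, up to 4 genes of each list by lowest p, and the 15 other genes most correlated in single cells with the number of members detected. The members, gene lists and tests were chosen with earlier results of these data known.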

Additional observations from a re-analysis of the deposited data

Results flagged for a closer look

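Each of the 10 genes was looked at in 8 groups of 4 to 7 libraries, which makes 80 sets of values, and 7 sets from 4 of the groups held a library that stood apart from the others (Dixon's criterion, which chance meets in about 5% of sets). In γδ IELs there was 1 such value: Egr3 was 5.68 CPM in jejunal Btnl2-KO replicate 3, and the nearest of the other libraries was at 2.76 CPM. The same library held 32.6 CPM of Fabp6, where the other jejunal Btnl2-KO libraries held at most 0.641 CPM. The part of this in the Egr3 value was not tested.

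The other flagged values were in whole tissue. Colon WT replicate 3 held 151 CPM of Fos (nearest library 87.5 CPM), 29.95 CPM of Nr4a1 (14.4 CPM) and 9.24 CPM of Nr4a2 (4.74 CPM). Colon Btnl2-KO replicate 7 held 2.204 CPM of Egr2 (0.679 CPM) and 5.90 CPM of Nr4a3 (3.62 CPM). Small intestine Btnl2-KO replicate 7 held 10.0 CPM of Nr4a2 (6.07 CPM).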

How the results depend on the processing

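In γδ IELs 0 of the 10 genes were called between genotypes under any alternative run. The calls between WT segments did depend on the processing. For jejunum against duodenum 1 gene was called, 2 with no fold minimum, 2 by DESeq2, 6 by limma-voom, 2 with the epithelial covariate and 1 to 3 without a single library, with 3 without duodenal replicate 3 or jejunal replicate 2. Over the whole table edgeR called 2900 genes there, DESeq2 3088, limma-voom 3587 and the fit with the covariate 2710. For ileum against duodenum 0 were called, 1 by DESeq2 and 1 with the covariate, beside 272, 498 and 551 over the whole table. For ileum against jejunum 1 was called, 2 with no fold minimum, 3 by limma-voom, 0 in a single fit of all libraries, 3 with the covariate and 0 to 2 without a single library, and over the whole table edgeR called 2822, limma-voom 4293, the single fit 1436 and the fit with the covariate 1588. limma-voom called 1 gene for jejunum against duodenum in Btnl2-KO, 3 in the interaction of ileum against jejunum and 1 in WT IECs for ileum against duodenum, where edgeR called 0 (over the whole table limma-voom called 234, 2705 and 1638, and edgeR 0, 0 and 860). For jejunum against duodenum in WT IECs DESeq2 called 2 and leaving out a library gave 0 to 1 (1 without jejunal replicate 2). Egr2 in WT ileum against jejunum turned from -0.33 to 0.0837 (log2) with the covariate. The cause of these changes was not tested. Over the whole table the interaction of ileum against jejunum gave 0 calls by edgeR, 2 by DESeq2 and 2705 by limma-voom, and WT IECs gave 100, 427 and 209 for jejunum against duodenum. No paired analysis was possible because the replicate numbers are names given in accession order and no label links the libraries that came from the same mice.

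The 10 genes' summed UMIs per 10000, in the order duodenum Btnl2-KO, duodenum WT, jejunum Btnl2-KO, jejunum WT, ileum Btnl2-KO and ileum WT, became 23.2, 20.5, 24.1, 23.0, 21.0 and 22.5 without the 5% of cells with the most UMIs, and 23.8, 20.9, 23.7, 23.7, 21.3 and 22.5 without cells holding other markers. With no filter on cells the first 3 became 22.2, 19.5 and 22.7. The cells holding other markers numbered 1465 to 1870 in a library, where 3589 to 4647 cells were kept. The share of cells with 3 or more members rose to 36.3%, 33.2%, 37.8%, 35.8%, 29.1% and 31.5% at 2000 UMIs, by the greater depth of each cell, and without the 5% of cells with the most UMIs it was 17.1% in duodenum Btnl2-KO and 13.3% in ileum Btnl2-KO. The mean correlation over pairs was 0.125 at 2000 UMIs. Depth limits the rare members most, since Egr3 had 6 to 20 thinned cells in a library, and groups of 2 to 4 libraries limit the bulk tests.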
